A study of Mus musculus with 8 samples.

Results

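Ucp1, the uncoupling protein of brown fat, was measured together with 9 genes best known from fat cells in peritoneal macrophage RNA of wild-type (wt) and Card9-/- mice. The 10 genes, Ucp1, Ucp2, Cidea, Ppargc1a, Adipoq, Plin1, Fabp4, Lpl, Cfd and Retn, were chosen by name, with their difference between these genotypes already known, so their values are given as a description, with no p-value for any of them. Where calls over all genes are counted, their number among the members is given beside it and nothing is read from it. On the array they have 22 probes of 56605. Of these, 12 probes passed the filter on dim probes, and 6 of the 10 genes entered the fit over all 18605 genes. Both groups hold 4 one-colour arrays. Every mouse, in the wt group as in the Card9-/- group, is labelled as given zymosan, a yeast cell wall preparation, at 500 mg/kg into the peritoneum for 4 h. The protocol also names 1 ml of 3% thioglycolate, an irritant that draws macrophages into the peritoneum, with the fluid collected on day 4. The cells of 4 or 5 mice per group were collected, red cells were lysed, and the cells that adhered within 3 h in culture were kept. The labels do not say which mice, or how many, stand behind each array, nor their strain, age or sex, nor how the Card9 deletion was made, and no array is of cells without zymosan.

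Fat cells store triglyceride in droplets, and brown and beige fat cells burn it. Ucp1 sits in the inner mitochondrial membrane of those cells and lets protons back into the matrix, so that the energy of respiration leaves as heat. White fat cells are known instead for their droplet coat, their lipid carriers and the hormones they secrete. Several of these genes are also known from macrophages: Fabp4, a fatty acid carrier, Lpl, which frees fatty acids from circulating lipoproteins, and Ucp2, a relative of Ucp1 found in many tissues. Card9 is the adaptor through which receptors for fungal cell walls signal.

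Each level below is the hybridization signal of a 60-base probe. Printed here, in the orientation of the files, is 1 probe each of the genes the results turn on: that of Ucp1, seen in one genotype only, those of 3 of the genes seen in both, and that of Adipoq, seen in neither. Fabp4 and Lpl have other probes, not printed, which stood for these genes in the fit.
Ucp1: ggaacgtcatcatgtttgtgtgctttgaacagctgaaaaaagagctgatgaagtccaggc
Fabp4: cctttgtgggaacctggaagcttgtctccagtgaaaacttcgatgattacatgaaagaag
Lpl: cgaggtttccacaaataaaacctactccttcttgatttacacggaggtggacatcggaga
Retn: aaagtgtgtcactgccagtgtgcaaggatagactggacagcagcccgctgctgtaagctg
Adipoq: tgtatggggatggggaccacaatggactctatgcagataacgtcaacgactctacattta
On the mouse genome build mm9 these probes lie at chr8:85821788-85821847 (Ucp1, plus strand), chr3:10208442-10208501 (Fabp4, minus strand), chr8:71425050-71425109 (Lpl, plus strand), chr8:3657312-3657371 (Retn, plus strand) and chr16:23157576-23157635 (Adipoq, plus strand). Each of them has at least 1 reading frame without a stop codon. Where a gene has several probes, each is named by the base of its transcript at which the probe starts, as the files give it: for these 5 probes base 1076, 75, 1340, 354 and 766. GC content was 43.3% in the Fabp4 probe, 45.0% in those of Ucp1, Lpl and Adipoq and 55.0% in that of Retn.

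Levels are log2 signals relative to the 75th percentile of the same array, so 0 is the 75th percentile and a difference of 1 is 2-fold. Between 47.8% and 56.5% of spots per array were well above background by the scanner software. The lowest level at which a probe was well above background lay between -4.84 and -4.31 on the wt arrays and between -4.17 and -3.47 on the Card9-/- arrays. The better of the Card9 probes gave signals of 4.75, 38.2, 1060 and 561 on the wt arrays, the last 3 well above background, and of 3.60, 11.9, 8.85 and 4.52 in the Card9-/- replicates, none of them above it. The library labelled wt replicate 1 thus showed no Card9 signal above background. It was also the closest of the wt arrays to wt replicate 2 (correlation over all genes tested 0.985, against 0.822 to 0.921 for the other wt pairs). Of the 15 macrophage markers listed, 10 were well above background on all 8 arrays, Adgre1 and Csf1r among them, while Mertk was on 2 arrays and Gata6 on 3. Averaged over the 13 macrophage markers tested, the wt arrays read -0.54, -0.05, 5.43 and 4.26 and the Card9-/- arrays 1.11 to 1.60. The probe of Xist, transcribed from the inactive X chromosome of females, was well above background on 4 wt and 0 Card9-/- arrays, while the Y-linked Eif2s3y, Ddx3y and Uty were on 0 wt and 4 Card9-/- arrays, so the sex of the mice and the genotype cannot be told apart. Slide cannot be separated either for most arrays: all wt replicates and Card9-/- replicate 4 share slide 1, and the other 3 Card9-/- arrays lie on slides 2 and 3.

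Of all 18605 genes tested with limma, 5 passed an adjusted p of 0.05 (0.0269%), of which 4 were higher (0.0215%), 3 of them the Y-linked genes above, and 1 lower (0.00537%) in Card9-/-. Among the 6 tested members 0 passed. Without adjustment, 1345 genes (7.23%) had a p under 0.05, with 1 member, Ucp1, among them, from which nothing is read. The probes that stood for Ucp1, Cfd and Retn in the fit passed the filter on dim probes through wt alone. Lpl at base 1082, which did not stand for its gene, did so too. These p-values measure the spread between the samples as labelled, which may be partly technical.

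**Figure D1:**
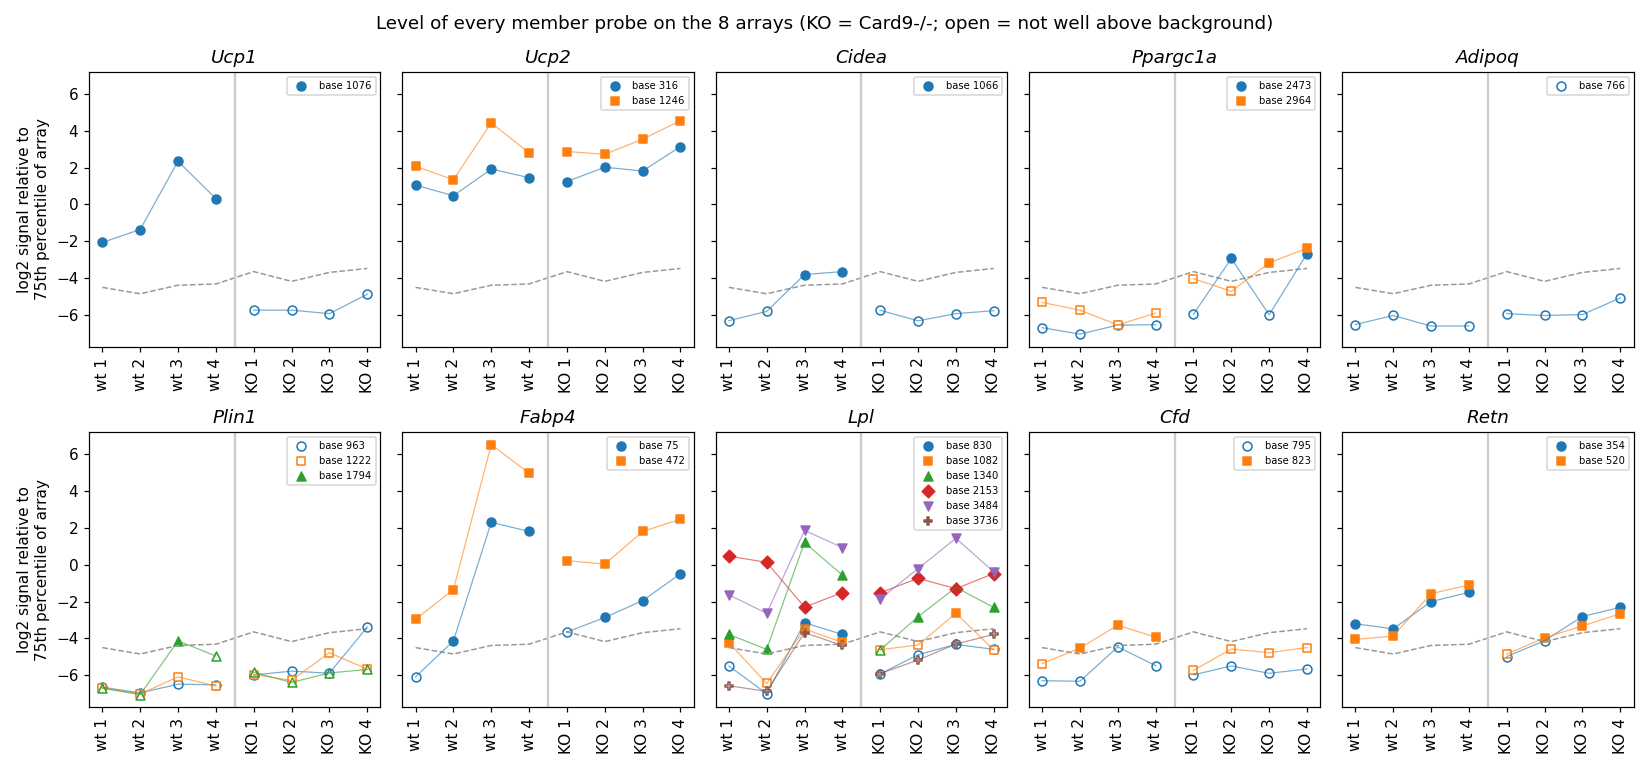
Level of each probe of the 10 genes on the 8 arrays, as log2 signal relative to the 75th percentile of the array. Filled points are well above background and open points are not, the dashed line is the lowest level at which any probe was well above background, and lines join arrays only to keep a probe's points together. Ucp1 is filled on the 4 wt arrays and open on the 4 Card9-/- arrays (KO).

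Ucp1 was seen in every wt library and in no Card9-/- library. It was read by 1 probe with 1 spot per array, so no other probe could be set beside it. The 4 wt arrays, in the order of their replicate numbers, read -2.06, -1.36, 2.34 and 0.32, all well above background. In Card9-/- replicates 1 to 4 they were -5.73, -5.73, -5.92 and -4.87, none of them well above background. The groups did not overlap, and wt replicates 3 and 4 were the high ones among the wt arrays. In the scanner's own units the wt signals were 84.7, 188, 1920 and 1110, and the Card9-/- signals 4.14, 9.99, 3.98 and 6.63. Group means were -0.19 ± 1.96 and -5.57 ± 0.47 (SD, n = 4 each), a difference of -5.38 (SE 0.87). Because no Card9-/- array measured it above background, the fold is only a bound: Ucp1 was at least 11.7-fold lower, taking each Card9-/- array at its lowest level well above background. Leaving out wt replicate 3 lowered the bound to 6.54-fold, and leaving out wt replicate 1 raised it to 18.1-fold. This bound and the later Ucp1 bounds rest on the background subtraction done by the scanner. With normexp correction, which damps dim signals, the estimated fold itself, not a bound, was 4.66, which is below 11.7. Without wt replicate 3 that estimate was 2.82. Over all genes tested, the 4 Card9-/- arrays lay below the 4 wt arrays for 3.69% and above them for 1.53%. The wt spread of Ucp1 was 4.39 log2 units, and 5.95% of 18595 genes measured on all arrays had a larger one.

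Macrophage markers and Ucp1 were both highest in wt replicates 3 and 4. The macrophage marker mean was -0.54 and -0.05 in wt replicates 1 and 2 and 1.11 or more on each Card9-/- array. The lowest wt level of Ucp1, in replicate 1, was 1.41 log2 units above the highest of the Card9-/- floors. With wt replicates 3 and 4 both left out Ucp1 was at least 4.10-fold lower in Card9-/-, and with wt replicates 1 and 2 both left out at least 33.6-fold. The part of the macrophage markers in the Ucp1 difference, or in its size, was not tested. In bulk RNA like this, fewer cells that express a gene and less of its RNA per cell cannot be told apart.

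Ucp2 was well above background on all 8 arrays with both its probes. At base 1246 the wt arrays read 2.07, 1.34, 4.42 and 2.80 and the Card9-/- arrays 2.87, 2.72, 3.54 and 4.54, again by replicate number. The probe at base 316 read 1.05, 0.47, 1.92 and 1.45, and 1.24, 2.02, 1.81 and 3.14. Both probes placed wt replicate 2 lowest and Card9-/- replicate 4 highest, and the groups overlapped at both. The differences were 0.76 (SE 0.69) at base 1246 and 0.83 (SE 0.47) at base 316. The sign at base 1246 depended on which wt libraries were used, with -0.19 without wt replicates 1 and 2 and 1.71 without wt replicates 3 and 4. Ucp3, a listed relative best known from muscle, lies beside Ucp2 on the chromosome. Its levels were 2.35, 1.69, 4.29 and 2.97 in wt and 2.69, 3.05, 3.35 and 4.76 in Card9-/-. Its lowest and highest arrays were those of Ucp2. Other relatives listed did not share this: Slc25a14 was lowest in wt replicate 3 (-0.47) and Slc25a30 in Card9-/- replicate 4 (-1.93). Slc25a27 was not among the genes tested. The cause of the parallel between Ucp2 and Ucp3 was not tested.

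Cidea, a droplet protein abundant in brown fat, was seen on 2 arrays, wt replicates 3 (-3.80) and 4 (-3.64). Its levels on the other wt arrays were -6.30 and -5.80, and on the Card9-/- arrays -5.74, -6.31, -5.92 and -5.76, none well above background. The difference was -1.05 (SE 0.62), and no fold bound above 1 could be given. Those 2 arrays are also those with the highest macrophage marker mean.

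Ppargc1a encodes the coactivator that switches on mitochondrial and heat-producing genes. It was the only member that no wt array showed above background while some Card9-/- arrays did. At base 2964 the wt levels were -5.31, -5.73, -6.53 and -5.89 and the Card9-/- levels -4.02, -4.71, -3.17 and -2.37, with only the last 2 well above background. At base 2473 the wt levels were -6.68, -7.03, -6.54 and -6.52 and the Card9-/- levels -5.95, -2.93, -5.98 and -2.67, with replicates 2 and 4 well above background. The groups did not overlap at either probe, but Card9-/- replicate 4 was the only array on which both probes were well above background. All Card9-/- arrays lay above all wt arrays for 1.53% of the genes tested, a share that leaves out dim probes like these. With no filter on dim probes the median difference of all genes was 0.32, against -0.09 with it, so nothing is read from the lack of overlap. The differences were 2.30 (SE 0.52) and 2.31 (SE 0.80). Taking each wt array at no less than its lowest level well above background gave 1.92-fold at base 2964 and 1.09-fold at base 2473. Without Card9-/- replicate 2 or 4 the latter was not above 1. These folds are not strict bounds, because at each probe some Card9-/- arrays in the mean were not well above background either. The floor of well-measured levels was itself higher on the Card9-/- arrays than on the wt arrays, as given above, and its part in these differences was not tested. Neither probe passed the filter on dim probes, so Ppargc1a was not among the genes tested.

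Adipoq and Plin1 define fat cells, the first as their main secreted hormone and the second as the coat of their droplets. Adipoq was not well above background on any array, with levels of -6.51, -6.02, -6.59 and -6.59 in wt and -5.92, -6.02, -5.97 and -5.07 in Card9-/-. Plin1 was seen by 1 of its 3 probes on 1 array, wt replicate 3 (-4.13 at base 1794). At that probe the other levels ran from -7.04 to -4.95 in wt and from -6.38 to -5.68 in Card9-/-. The probes at bases 963 and 1222 were not well above background on any array, with levels between -7.01 and -3.38. Of the other defining fat cell genes listed, Cidec, which fuses droplets, was seen on 0 arrays, while Lep, which encodes the hormone leptin, was seen on all 8, with -1.57, -2.03, -1.96 and -2.90 in wt and -2.54, -2.46, -3.31 and 0.20 in Card9-/-. The Lep difference was 0.09 (SE 0.71, limma adjusted p = 0.992), and Card9-/- replicate 4 was its highest array.

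Fabp4 had the widest range of the 10 genes, and it lay within the wt group. At base 472 it was well above background on all 8 arrays, with levels of -2.96, -1.35, 6.51 and 4.96 in wt. The Card9-/- levels, 0.22, 0.03, 1.80 and 2.47, all lay between the low and the high pair of wt arrays. From wt replicate 1 to wt replicate 3 the signal differed 707-fold, a range of 9.47 log2 units that only 17 of 18595 genes exceeded (0.0914%). The group means were 1.79 ± 4.65 and 1.13 ± 1.20 (SD, n = 4 each), a difference of -0.66 (SE 2.02) that is small against that spread. Its sign was set by the choice of wt libraries, being -4.61 without wt replicates 1 and 2 and 3.28 without wt replicates 3 and 4. The probe at base 75, printed above, gave the same order of wt arrays with -6.08, -4.13, 2.30 and 1.80. In Card9-/- it read -3.65, -2.86, -1.95 and -0.49. It was well above background on 6 arrays, all but the first of each group, and differed by -0.71 (SE 1.87).

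Lpl was covered by 6 probes that did not all run the same way. At base 3484, which stood for the gene in the fit, the levels were -1.63, -2.64, 1.86 and 0.93 in wt and -1.85, -0.21, 1.43 and -0.39 in Card9-/-, all well above background. The probe at base 1340, printed above, read -3.78, -4.59, 1.21 and -0.57 in wt and -4.62, -2.82, -1.23 and -2.32 in Card9-/-, with only Card9-/- replicate 1 not well above background. Both put wt replicates 3 and 4 above wt replicates 1 and 2. The probe at base 2153 of another listed transcript ran in the opposite order in wt, with 0.46, 0.13, -2.30 and -1.51, and read -1.52, -0.74, -1.30 and -0.48 in Card9-/-. The other 3 probes were dim: bases 830, 1082 and 3736 lay between -6.99 and -2.63 and were well above background on 2, 4 and 1 of the 8 arrays. Differences over the 6 probes ran from -0.82 (SE 1.30, base 1340) to 0.58 (SE 0.80, base 3736), each smaller than its own standard error. At base 3484 the difference was 0.11 (SE 1.07), and it turned from -1.65 without wt replicates 1 and 2 to 1.88 without wt replicates 3 and 4.

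Cfd and Retn encode proteins that fat cells secrete, the complement protease adipsin and the hormone resistin. Cfd was seen only in wt: at base 823 the levels were -5.36, -4.52, -3.28 and -3.93, well above background in the last 3 replicates, and -5.73, -4.57, -4.77 and -4.49 in Card9-/-, above background in none. The groups overlapped, the difference was -0.62 (SE 0.49), and no bound above 1 could be given against the floor of the Card9-/- arrays. Its other probe, which starts at base 795 and shares 32 bases with the first, was not well above background on any array.

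Retn was seen by both probes on every wt array. At base 354 the levels were -3.20, -3.48, -2.0 and -1.50 in wt and -4.98, -4.12, -2.81 and -2.31 in Card9-/-, where replicates 3 and 4 were well above background. At base 520 they were -4.05, -3.87, -1.57 and -1.10, and -4.85, -3.96, -3.32 and -2.66, where replicates 2 to 4 were. The probe at base 354, which stood for the gene in the fit, thus passed the filter on dim probes through wt alone. The groups overlapped at both probes. The differences, -1.01 (SE 0.68) and -1.05 (SE 0.78), were close to each other. They were -1.81 and -2.36 without wt replicates 1 and 2, and -0.22 and 0.26 without wt replicates 3 and 4.

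**Figure D2:**
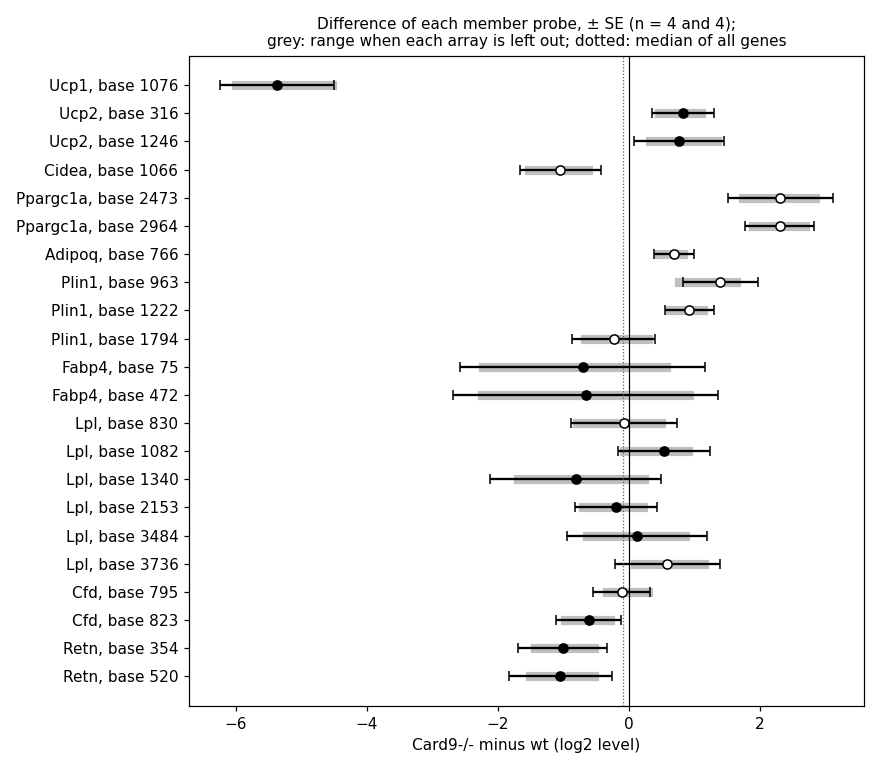
Difference of each probe of the 10 genes, Card9-/- minus wt, on the log2 scale, with its standard error from the fit (n = 4 and 4). Grey bars span the values when each array is left out in turn, filled points passed the filter on dim probes and open points did not, and the dotted line is the median of all genes. Ucp1 lies at -5.38 and stays between -6.00 and -4.53 when an array is left out, whereas the Fabp4 and several Lpl bars cross 0.

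A shared order of the wt arrays ran through these genes. Of the 16 probes well above background on at least 1 wt array, 15 had wt replicates 3 and 4 both above wt replicates 1 and 2, the exception being Lpl at base 2153. Cidea, Plin1 at base 1794 and Lpl at bases 830 and 3736 were counted only through wt replicates 3 or 4, which partly fixed their order beforehand. At Lpl base 1082 the order rested on -4.21 against -4.22. Several probes share a gene, so the probe count has no share over all genes beside it. By gene, wt replicates 3 and 4 were both highest in wt for 6 of 6 tested members, for 13 of 13 macrophage markers tested and for 32.6% of all genes. All 4 Card9-/- levels lay inside the wt range for 7 of the 16 probes, and by gene for 2 of 6 tested members and for 25.2% of all genes. The mean levels of the tested fibroblast, mesothelial and neutrophil markers also had wt replicates 3 and 4 highest in wt. Those of the endothelial, skeletal muscle, B cell and T and natural killer cell markers did not. The part of any of these cell types in this order was not tested.

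Genes that share the members' pathways were taken from lists. None of the brown and beige fat, fat cell, fatty acid, mitochondrial carrier or mitochondrial biogenesis genes passed the test. Of 28 brown and beige fat genes 14 were tested, with 8 differences above and 6 below 0 and a median of 0.42, against 8129 above and 10476 below 0 and a median of -0.09 over all genes. Here 7 genes were not above background on any array, namely Elovl3, Ebf2, Tbx1, Adrb3, Bmp8b, Ckmt2 and Pank1. The smallest unadjusted p-values were those of Tnfrsf9, a surface receptor used as a beige fat marker and also known from T cells (1.29, SE 0.50, limma adjusted p = 0.618), and Prdm16, a regulator of brown fat identity (-1.37, SE 0.61, limma adjusted p = 0.692), the latter well above background on 4 wt arrays and only 1 Card9-/- array. The T and natural killer cell markers, 17 of 17 of which had differences above 0 with a median of 2.18, stand beside the Tnfrsf9 value, and their part in it was not tested.

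Of 25 further fat cell genes 17 were tested, 12 above and 5 below 0, with a median of 0.19. The 2 with the smallest p were Npr3, a clearance receptor for natriuretic peptides (limma adjusted p = 0.612), and Dgat1, which makes triglyceride (1.21, SE 0.51, limma adjusted p = 0.656). Npr3 was well above background on 3 wt and 0 Card9-/- arrays, so it passed the filter through wt alone, and no fold bound above 1 could be given. Pparg, the master regulator of fat cells, named after its values were seen, read -4.78, -3.95, 0.64 and -1.26 in wt and -0.97, -1.62, 0.01 and -0.30 in Card9-/-. Its difference was 1.62 (SE 1.08, limma adjusted p = 0.815), and wt replicates 1 and 2 were again its lowest arrays.

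All 23 fatty acid handling genes listed for macrophages were tested, with 8 above and 15 below 0 and a median of -0.20. Their mean level was -0.31 and -0.37 in wt replicates 1 and 2, 1.91 and 1.26 in wt replicates 3 and 4, and 0.24 to 0.83 in Card9-/-, so that the Card9-/- means lay between the low and the high pair of wt arrays, as the Card9-/- levels of Fabp4 did. The 2 with the smallest p were Acadvl, a mitochondrial enzyme of fatty acid oxidation (-0.53, SE 0.37, limma adjusted p = 0.824), and Slc27a1, a fatty acid transporter (1.48, SE 1.05, limma adjusted p = 0.827). Among 15 mitochondrial carriers tested, 5 were above and 10 below 0 (median -0.16), led by the citrate carrier Slc25a1 (0.84, SE 0.41, limma adjusted p = 0.727) and the phosphate carrier Slc25a3 (-0.64, SE 0.40, limma adjusted p = 0.794). Among 22 biogenesis genes 5 were above and 17 below 0 (median -0.27, and 0.05 after quantile normalization), led by Polg, the polymerase of mitochondrial DNA (-0.69, SE 0.41, limma adjusted p = 0.786), and Atp5b, a subunit of ATP synthase (-0.54, SE 0.34, limma adjusted p = 0.795).

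**Figure D3:**
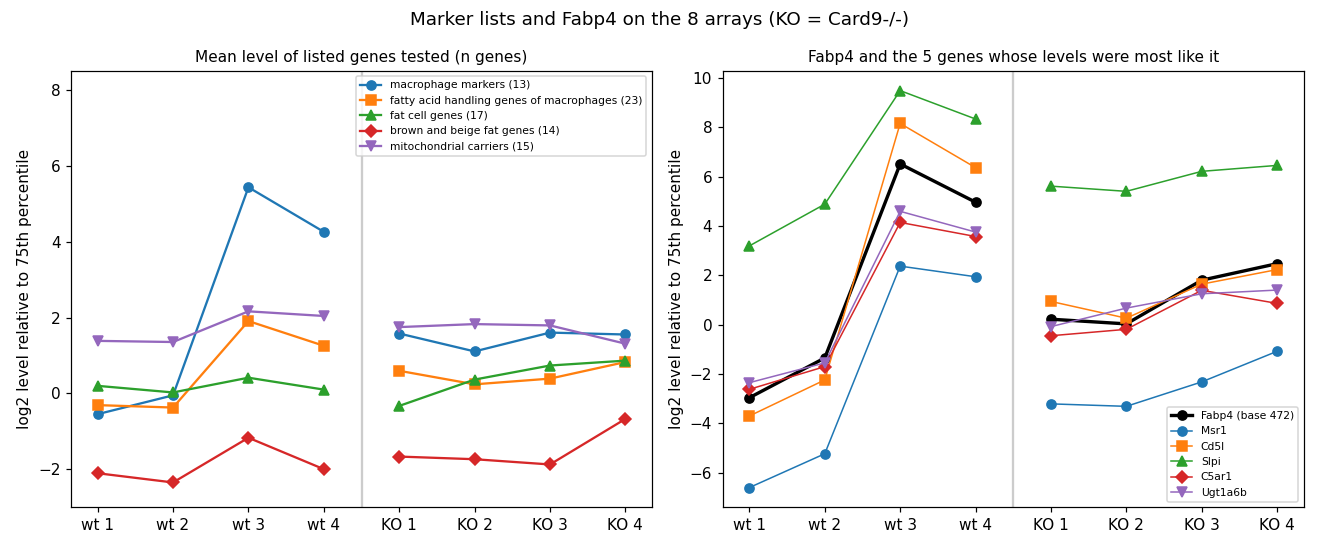
Left, mean level of the tested genes of 5 lists on each array, and right, Fabp4 at base 472 with the 5 genes whose levels over the 8 arrays were most like it, all as log2 signal relative to the 75th percentile of the array. Lines join arrays only to keep a gene's points together. Macrophage markers, fatty acid handling genes and Fabp4 are highest in wt replicates 3 and 4, at 5.43 and 4.26 for the macrophage markers.

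The genes most like the members were found by Pearson's r over the 8 arrays among 12702 named genes, as a description. All genes share the same 8 arrays, with the wt order described above. For Ucp1 the 5 nearest were Tcp10b (r = 0.970, Spearman's rho = 0.905), Dtx2 (0.962 and 0.833), Hsd17b13, a lipid droplet enzyme of liver (0.960 and 0.952), Map3k20 (0.958 and 0.976) and Scarb1, the receptor for high-density lipoprotein (0.951 and 0.762). Tcp10b and Hsd17b13 had levels between -6.31 and -2.76, so dim probes are among them. For Fabp4, an addition made after its values were seen, they were the macrophage scavenger receptor Msr1 (0.992 and 1), Cd5l (0.992 and 1), Slpi (0.991 and 1), the complement receptor C5ar1 (0.989 and 0.952) and Ugt1a6b (0.988 and 0.976). Adipoq was not tested, and for Cfd, taken in its place, they were Fkbp14 (0.969 and 0.976), Cxcl1 (0.961 and 0.976), C4a (0.957 and 0.905), Plcb4 (0.951 and 0.881) and Igfbp5 (0.950 and 0.786). No gene of the fat cell or brown fat lists was among these 15. With only 17 and 14 genes of those lists tested, that was likely in any case, and nothing is read from it.

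Markers of other cell types in the peritoneum were counted on the same arrays. The number well above background on an array was 3 to 10 of 12 mesothelial, 5 to 8 of 12 fibroblast, 3 to 6 of 10 endothelial and 3 to 8 of 12 skeletal muscle markers. Differences above 0 were found for 4 of 6 mesothelial, 3 of 6 fibroblast, 3 of 4 endothelial, 3 of 6 muscle, 2 of 13 macrophage, 7 of 14 neutrophil and 9 of 10 B cell markers tested, and none of these or of the T and natural killer cell markers was called. The medians were 0.26, 0.22, 0.29, -0.22, -0.71, 0.00 and 0.50 in that order. The mean level of the tested fibroblast markers was -2.42 and -1.43 in wt replicates 1 and 2, 2.02 and 0.62 in wt replicates 3 and 4 and between -1.34 and 0.88 in Card9-/-. Fibroblast and mesothelial means were highest in wt replicate 3 (2.02 and -0.59), where Plin1 and Cidea were seen. Cidea was also seen in wt replicate 4, where the mesothelial mean, -1.99, was below those of Card9-/- replicates 2 to 4 (-1.92 to -1.60). The fibroblast mean there, 0.62, was below that of Card9-/- replicate 2 (0.88). The part of these cell types in the Plin1 and Cidea values was not tested.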

How the data were processed

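The deposited scanner files hold intensity values, read and background-subtracted with Agilent Feature Extraction 10.7.1.1 per the file headers and the submitters' processing notes. The authors' series matrix holds log2 values with a median of 4.48 per column, which were used only as an alternative: of its 56745 rows, the last 7075 carried the values of the next probe, and 49670 were used. How the authors made it is not given in the labels or headers used here. No intensity or log2 column was left without a sample.

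Control spots were removed, log2 of the processed signal was set relative to the array's 75th percentile, outlier-marked spots were set to missing and repeated spots averaged. Kept were probes (28169) that in either group were well above background on 3 or more of the 4 arrays, with 3 usable arrays per group, and the probe with the highest mean stood for a gene (18605). Gene names came from accessions and symbols in the GRCm38.p6 gene table, and coordinates are mm9, per the file headers. With data.table (1.17.8) for the tables, limma (3.58.1, under R 4.3.3) fitted a mean and a genotype term per gene, two-sided, with Benjamini-Hochberg adjustment over all genes at 0.05. The number of arrays limits the precision. The fit was checked on simulated data with normal noise and each gene's SD capped at the median over genes. That check does not cover genes with a wider spread, or slide effects. Differences and standard errors of the 22 probes of the 10 genes come from a fit over all probes.

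The 10 genes and the 14 lists were chosen with earlier results of these data known. By rule, all probes of the 10 genes were named, up to 4 called genes per list or else the 2 with the smallest p (for other cell types only counts are given), and the 5 genes most like Ucp1 and like Adipoq or its stand-in. Replicates share numbers between groups, but the deviations of same-numbered arrays correlated at -0.13, 0.25, -0.12 and -0.28, so they were not treated as pairs.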

Additional observations from a re-analysis of the deposited data

Results flagged for a closer look

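In each group of 4 arrays and for each of the 22 probes, the highest or lowest array was set against the others by Dixon's criterion, which chance passes in about 1 group of 20. Of 44 groups 4 passed. Adipoq in wt was highest in replicate 2 at -6.02, with the next array at -6.51, and in Card9-/- highest in replicate 4 at -5.07, with the next at -5.92. Plin1 at base 963 was highest in Card9-/- replicate 4 at -3.38, with the next at -5.77. None of these 3 values was well above background. Lpl at base 1082 was highest in Card9-/- replicate 3 at -2.63, with the next at -4.35, and was well above background there.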

How the results depend on the processing

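Over 18 other ways of processing the arrays (background, scaling, filter, probe, source, slide, pairing and left-out arrays), the number of members called was 0 throughout. The Ucp1 difference kept its direction in all of them: it was -2.22 with normexp correction and ran from -6.00 to -4.53 with 1 array left out. Leaving out wt replicates 1 and 2 together, chosen after seeing the data, gave -6.89 with 430 genes called (137 higher and 293 lower). The main fit tested 18605 genes. Among the 430 were 2 members (Ucp1 and Fabp4, from which nothing is read) and 16 listed genes. That choice kept the 2 wt arrays on which Ucp1 and Fabp4 were highest, which partly fixed these member calls beforehand. Leaving out wt replicates 3 and 4 together gave a Ucp1 difference of -3.86 with 6 genes called. With 1 array left out, 5 to 6 genes and 3 to 4 listed genes were called, against 5 and 3. With slide as a block or within slide 1, where Card9-/- replicate 4 is the only array of its genotype and is assumed to vary like the wt arrays, 0 genes and 0 listed genes were called by limma, with 1660 and 1637 at an unadjusted p under 0.05, and Ucp1 was at -4.69 in both. The replicate block called 3 genes and left the Ucp1 difference at -5.38. Of the 12 probes that passed the filter, 4 kept the sign of their difference under all 18 (Ucp1, both of Ucp2 and Retn at base 520) and 8 did not. Retn at base 520 kept its sign only barely, at -0.01 with slide as a block and within slide 1. Fabp4 turned to the opposite sign with slide as a block, within slide 1 and without wt replicate 3 or 4. Of the 10 that did not pass, 6 kept it. The median difference of all genes, -0.09, was -0.26 with median scaling and with slide as a block, 0.03 with normexp correction and 0.32 with no filter on dim probes, so list medians near it have no settled sign. Dim probes allow no firm fold for Adipoq, Plin1, Cidea, Cfd and Ppargc1a. The causes were not tested.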
